A study of Sus scrofa with 4 samples.

Results

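The antiviral effectors and sensors of the interferon response, 10 genes in all, were followed over the 4 conditions of the series: the RNA sensors DDX58 and IFIH1, and the effectors RSAD2, MX1, MX2, ISG15, IFIT1, IFIT2, IFIT3 and OAS1. All non-control probes that carried one of these names on the array were taken, which gave 24 probes for 10 genes, out of 43603 probes and 34853 gene names. The genes were chosen on the log2 ratios of these same arrays, with results already known, so that their levels and ratios are a description and carry no test. Porcine intramuscular preadipocytes (PIP), a cell line derived from the longissimus thoracis muscle of a female Duroc pig, were compared with mature adipocytes derived from them (pMA). The pMA were PIP cells kept past confluence and then fed for 4 days with a medium containing insulin, dexamethasone, octanoate and oleate. Further pMA received either TNF-α at 2.5 µg/ml or serotonin (5-HT) at 100 µM for 12 h, the labels giving the serotonin dose as µM per ml. All pMA groups therefore shared the differentiation medium, which PIP cells did not receive. The methods give pooled RNA of a group only in their passage on a mouse array, so that pooling for these arrays is uncertain. Each condition was measured on 1 array, with all 4 arrays on 1 slide. The differences below therefore have no replicate arrays as a check and are given without p-values.

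Type I interferons bind a receptor on the cell surface and signal through JAK kinases to STAT and IRF factors, which switch on a common set of antiviral genes. Some of these genes encode sensors of viral RNA that in turn drive more interferon production, while others block single steps of virus replication. Preadipocytes, like most cells of connective tissue, can run this program without immune cells being present. In these cultures a smaller share of cells expressing a gene and less RNA per cell cannot be told apart.

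The probe sequences are shown for ISG15, which a single probe measured, and for IFIT3, IFIH1 and OAS1, which had several probes. The probes of each of these genes gave the same order of conditions. Their ratios differed, most of all for IFIT3 in pMA against PIP. Each is a 60-base oligonucleotide, written 5′ to 3′ as deposited, and the capitals mark the longest run of bases that it shared with a probe of another of the 10 genes. For IFIT3 and IFIH1 the first sequence is the brighter probe, and for OAS1 it is the brightest of 3. The OAS1 probe not shown gave smaller differences, with log2 ratios of -1.53 for pMA against PIP, 0.19 for TNF-α against pMA and -1.29 for serotonin against pMA.
ISG15: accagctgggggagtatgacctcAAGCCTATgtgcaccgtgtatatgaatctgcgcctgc
IFIT3, first: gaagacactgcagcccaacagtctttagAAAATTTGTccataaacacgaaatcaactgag
IFIT3, second: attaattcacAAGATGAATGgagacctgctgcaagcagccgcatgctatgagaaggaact
IFIH1, first: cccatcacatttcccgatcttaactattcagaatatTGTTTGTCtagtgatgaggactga
IFIH1, second: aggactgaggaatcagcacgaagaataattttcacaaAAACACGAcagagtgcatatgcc
OAS1, first: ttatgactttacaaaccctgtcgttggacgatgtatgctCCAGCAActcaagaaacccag
OAS1, second: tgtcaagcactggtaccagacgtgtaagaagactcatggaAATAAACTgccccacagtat
Over all 24 probes the longest run shared with a probe of another of the genes was between 7 and 10 bases, the 10-base run lying between IFIT3 and IFIT2. The GC content of the probes lay between 35% and 55%. One probe, the brighter of the pair for IFIT2, shared 16 bases or more with a probe of another gene name on the array.

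Signals are given as multiples of the 75th percentile of intensity of the same array, which was 515 for PIP, 479 for pMA, 559 for pMA with TNF-α and 566 for pMA with serotonin. Between 56.5% and 66.0% of all probes on an array were well above background. All 24 probes of the 10 genes were well above background on all 4 arrays and none was saturated. Every ratio of these 10 genes below was therefore measured on both sides. Where a gene had several probes, its values are those of the brightest on average, and the level of one gene is not set against that of another. Probes spotted more than once on an array had a standard deviation between 0.11 and 0.15 on the log2 scale, which corresponds to a technical standard deviation of 0.17 to 0.20 for a log2 ratio and leaves out the spread between cultures.

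The 10 genes had one order in common. The signal was highest in PIP cells and lowest in pMA stimulated with serotonin for 10 of 10 genes and for 24 of 24 probes. Of the 16424 gene names well above background on all 4 arrays, 12.7% had PIP cells highest and serotonin lowest. Unstimulated pMA and pMA with TNF-α lay in between, and these neighbours differed by less than the technical standard deviation of 0.20 for MX2, ISG15, IFIT1 and IFIT2. For RSAD2, MX1, DDX58 and IFIT3 the gap was beyond it but fell under it with another scaling or with the mean over probes, so that these genes gave no firm order of the pair. Only OAS1 and IFIH1 kept TNF-α above unstimulated pMA by more than this technical measure under the alternatives run, and the spread between cultures is unknown. By single probes the split was less clear. A probe of OAS1 gave 0.19, under the measure, whereas all 5 probes of MX1 lay beyond it, between 0.28 and 0.47.

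**Figure D1:**
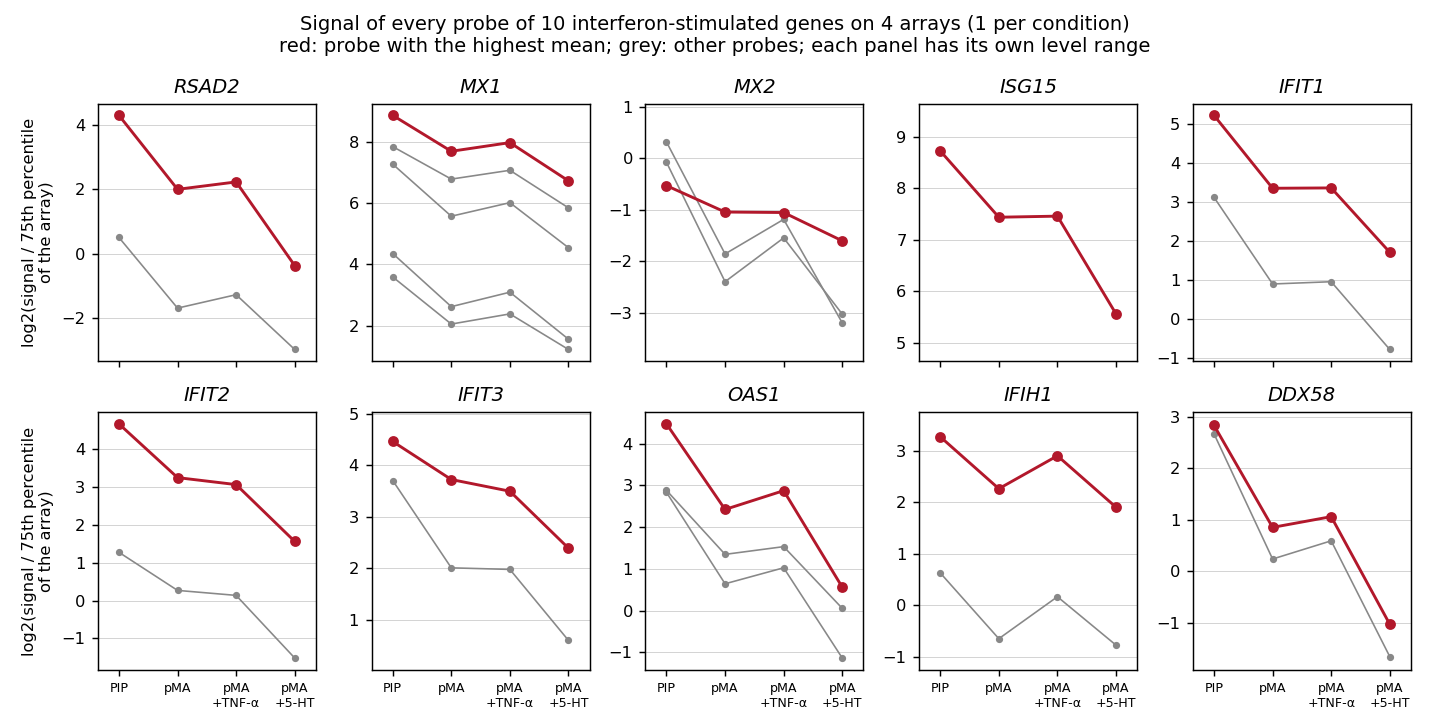
Level of every probe of the 10 genes on the 4 arrays, as log2 of the signal divided by the 75th percentile of the array (y axis, a range of its own in each panel), against the condition (x axis, 1 array each). Red points and lines are the probe with the highest mean, grey ones the other probes, and in 24 of 24 probes PIP cells are highest and serotonin lowest.

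DDX58, which encodes RIG-I, a helicase that senses viral RNA by its triphosphate end, stood at 7.12 times the 75th percentile in PIP cells, 1.80 in pMA, 2.08 with TNF-α and 0.49 with serotonin. The level in PIP cells was apart from those of the 3 pMA arrays, and the level with serotonin was the lowest of the 4. The log2 ratio of DDX58 was -1.98 for pMA against PIP, 0.21 for TNF-α against pMA and -1.88 for serotonin against pMA. Its second probe gave -2.43, 0.35 and -1.89. IFIH1, which encodes MDA5, the related helicase for long double-stranded RNA, stood at 9.64 times the 75th percentile in PIP cells, 4.80 in pMA, 7.47 with TNF-α and 3.74 with serotonin. Its log2 ratio was -1.01 for pMA against PIP, 0.64 for TNF-α against pMA and -0.36 for serotonin against pMA, and its second probe gave -1.28, 0.81 and -0.13. By the brightest probe of each gene, IFIH1 had the largest difference after TNF-α and the smallest after serotonin among the 10 genes, and both of its probes shown above gave these directions.

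OAS1, a synthetase of the linked oligoadenylates that activate RNase L, stood at 22.2 times the 75th percentile in PIP cells, 5.36 in pMA, 7.33 with TNF-α and 1.48 with serotonin. The log2 ratio of OAS1 was -2.05 for pMA against PIP, 0.45 for TNF-α against pMA and -1.86 for serotonin against pMA. Its 3 probes lay between -2.19 and -1.53, between 0.19 and 0.45 and between -1.86 and -1.29. RSAD2, which encodes viperin, a radical SAM enzyme that makes a chain-terminating nucleotide, had the widest range of the 10 genes, 4.65 on the log2 scale between its highest and lowest arrays. RSAD2 stood at 19.5 times the 75th percentile in PIP cells, 3.99 in pMA, 4.68 with TNF-α and 0.78 with serotonin. Its log2 ratio was -2.29 for pMA against PIP, 0.23 for TNF-α against pMA and -2.36 for serotonin against pMA. The second probe of RSAD2 gave a smaller difference after serotonin, -1.28, beside -2.19 and 0.42 in the other comparisons, so that the size of the serotonin difference depended on the probe while its direction did not.

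MX1 and MX2 encode antiviral dynamin-like GTPases, and their genes lie next to each other in the RefSeq table of Sscrofa11.1. MX1 stood at 464 times the 75th percentile in PIP cells, 206 in pMA, 251 with TNF-α and 106 with serotonin. Its log2 ratio was -1.17 for pMA against PIP, 0.28 for TNF-α against pMA and -0.96 for serotonin against pMA. The 5 probes of MX1 lay between -1.73 and -1.06, between 0.28 and 0.47 and between -1.06 and -0.83. The probes of MX2 disagreed most among the 10 genes for pMA against PIP and for TNF-α against pMA, and those of RSAD2 for serotonin against pMA. The brightest of its 3 probes stood at 0.69 times the 75th percentile in PIP cells, 0.49 in pMA, 0.48 with TNF-α and 0.33 with serotonin, with log2 ratios of -0.51, -0.01 and -0.56. The other two probes of MX2 gave -2.17 and -2.32 for pMA against PIP, 0.67 and 0.85 for TNF-α against pMA, and -1.34 and -0.63 for serotonin against pMA. The log2 ratio of MX2 for pMA against PIP therefore spread over 1.81 between probes, against a median spread of 0.45 over the 9 genes with several probes.

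The IFIT genes encode tetratricopeptide proteins that bind viral RNA and are neighbours in the order IFIT2, IFIT3, IFIT1. IFIT1, which binds RNA lacking methylation at the cap, stood at 37.4 times the 75th percentile in PIP cells, 10.2 in pMA, 10.3 with TNF-α and 3.27 with serotonin. Its log2 ratio was -1.87 for pMA against PIP, 0.01 for TNF-α against pMA and -1.64 for serotonin against pMA, and its second probe gave -2.23, 0.06 and -1.68. IFIT2, a partner of the same complexes, stood at 25.3 times the 75th percentile in PIP cells, 9.46 in pMA, 8.33 with TNF-α and 2.95 with serotonin. Its log2 ratio was -1.42 for pMA against PIP, -0.18 for TNF-α against pMA and -1.68 for serotonin against pMA. The second probe of IFIT2 was just past 2-fold lower in pMA than in PIP cells and gave -0.13 after TNF-α and -1.78 after serotonin. IFIT3, which stabilises IFIT1, stood at 22.1 times the 75th percentile in PIP cells, 13.3 in pMA, 11.3 with TNF-α and 5.26 with serotonin. Its log2 ratio was -0.74 for pMA against PIP, -0.23 for TNF-α against pMA and -1.33 for serotonin against pMA. The second IFIT3 sequence above gave -1.70, -0.03 and -1.41, and the pair differed most in the comparison of pMA with PIP cells.

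ISG15, a ubiquitin-like protein that is attached to viral and host proteins, stood at 423 times the 75th percentile in PIP cells, 173 in pMA, 176 with TNF-α and 47.1 with serotonin. The log2 ratio of ISG15 was -1.29 for pMA against PIP, 0.02 for TNF-α against pMA and -1.88 for serotonin against pMA. The level with TNF-α lay within the technical standard deviation of that in unstimulated pMA, and serotonin lay below both.

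For differentiation, pMA were compared with PIP cells. All 10 genes were lower in pMA, 8 of them by 2-fold or more, which is the cutoff that the methods used, and OAS1 and RSAD2 at least 4-fold. Of 18630 gene names with a ratio, 3.56% were at least 2-fold lower in pMA, 0.698% at least 4-fold lower and 41.9% lower by any amount. Over the 10 genes the median log2 ratio was -1.35, beside 0.12 for all gene names. IFIH1 lay just inside the 2-fold cutoff at -1.01, and IFIT3 at -0.74 and MX2 at -0.51 lay outside it. Counted by probe, 24 of 24 were lower in pMA and 22 of 24 at least 2-fold. Scaling to 5 bright spike-in controls was an alternative chosen after seeing the data. It moved the median of all gene names to 0.52 and that of the 10 genes to -0.97. Under it 5 of the 10 genes were at least 2-fold lower, where 1.69% of all gene names were.

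For TNF-α, stimulated pMA were compared with the unstimulated pMA array. None of the 10 genes differed 2-fold, where 3.56% of 19779 gene names did in either direction. The log2 ratios lay between -0.23 for IFIT3 and 0.64 for IFIH1, with 7 genes higher and 3 lower, where 50.7% of all gene names were higher. Their median was 0.11, beside 0.01 for all gene names. Of the 24 probes, 19 were higher and 5 lower with TNF-α, the 5 being both probes of IFIT2, both of IFIT3 and the brightest of MX2. The sign for MX2, IFIT1 and ISG15 depended on the scaling or on the probes used. On the same arrays 8 of 10 NF-κB target genes, which TNF-α is known to induce, were at least 2-fold higher with TNF-α, beside 2.21% of all gene names, with a median log2 ratio of 2.40. Among them TNFAIP3, a deubiquitinase that restrains NF-κB, had a log2 ratio of 5.29, the mitochondrial superoxide dismutase SOD2 of 3.67, and the chemokines CCL20 and CXCL2 of 3.59 and 3.27. With serotonin, 5 of 9 of these genes with a ratio were at least 2-fold higher, beside 2.08% of all gene names, with a median of 1.53. TNFAIP3 was at 2.26, SOD2 at 1.53, CCL20 at 1.79 and CXCL2 at 3.06. Lower with serotonin were 2 of the 9, NFKB2 at -1.44, whose second probe gave 0.25, and CCL2 at -0.19. In the paper's RT-qPCR, from independent experiments, TNFAIP3 and CXCL2 were significantly higher after TNF-α. Neither is named there as significantly higher after serotonin, so that their array values with serotonin lack that backing.

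For serotonin, the same unstimulated array was the reference, so that its own error enters this comparison and the former alike. All 10 genes were lower with serotonin, 7 of them at least 2-fold and RSAD2 at least 4-fold. Of 19094 gene names with a ratio, 4.73% were at least 2-fold lower, 0.681% at least 4-fold lower and 48.8% lower by any amount. Over the 10 genes the median log2 ratio was -1.66, beside 0.01 for all gene names. MX1 lay just outside the cutoff at -0.96, IFIT3 was the nearest inside it at -1.33, and MX2 at -0.56 and IFIH1 at -0.36 were the other two outside it. By probe, 24 of 24 were lower with serotonin and 17 of 24 at least 2-fold. The paper also reports significant, dose-dependent cell death after serotonin. The part of cell death in the serotonin differences was not tested.

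**Figure D2:**
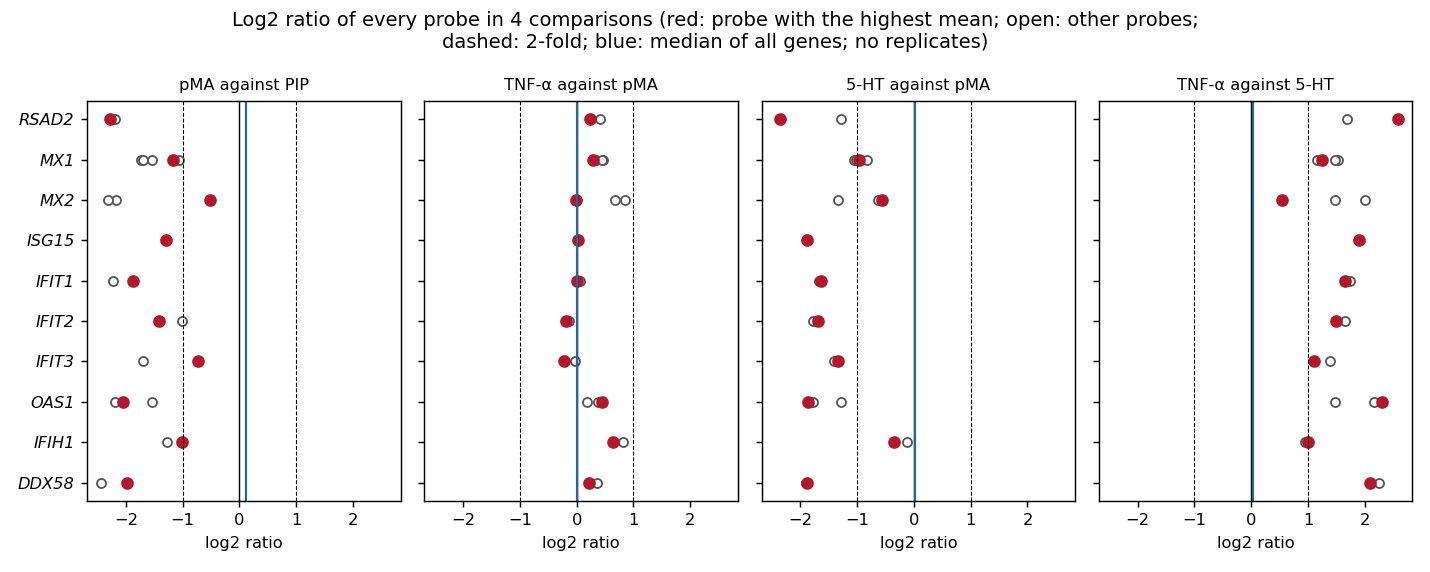
Log2 ratio of every probe (x axis) of the 10 genes (y axis) in 4 comparisons, 1 array per condition. Red points are the probe with the highest mean, open points the other probes, dashed lines a 2-fold difference and blue lines the median of all gene names, and every probe lies left of 0 for pMA against PIP and serotonin against pMA.

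The stimulated arrays were also compared directly, without the unstimulated one. All 24 probes of the 10 genes were higher with TNF-α than with serotonin, and 8 genes differed at least 2-fold, where 5.07% of 21859 gene names were at least 2-fold higher and 53.7% higher by any amount. The log2 ratio was highest for RSAD2 at 2.59, OAS1 at 2.31 and DDX58 at 2.09, and lowest for IFIH1 at 1.00, just under the cutoff, and MX2 at 0.55. The median was 1.58, beside 0.04 for all gene names. Against PIP cells, the genes with serotonin had a median log2 ratio of -3.13, with 10 of 10 at least 2-fold lower and 8 of 10 at least 4-fold lower, where 6.91% and 1.84% of 20191 gene names were that far lower. With TNF-α the median against PIP cells was -1.43, and 6 of 10 were at least 2-fold lower, where 3.04% of 21679 gene names were.

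The other genes of the pathway were described from lists written out by role. Of 24 further interferon-stimulated genes on the array, 11 of 22 with a ratio were at least 2-fold lower in pMA than in PIP cells and none was 2-fold higher, with a median of -1.01, where 3.56% of all gene names were that far lower. After TNF-α, 4 of 24 were at least 2-fold higher and none lower, with a median of 0.33, where 2.21% of all gene names were that far higher. These 4 were the chemokine CXCL10 at 1.95, the ADP-ribosyltransferase PARP14 at 1.26, and the immunoproteasome subunits PSMB9 at 1.26 and PSMB8 at 1.04, although the second probe of PARP14, at 0.93, was short of 2-fold. After serotonin, 7 of the 21 with a ratio were at least 2-fold lower and none higher, with a median of -0.68, where 4.73% of all gene names were that far lower. CXCL10 at -1.14 and PARP14 at -1.26 were among the 7, whereas PSMB9 at -0.38 and PSMB8 at -0.18 were not. Between the stimulated arrays 14 of 24 were at least 2-fold higher with TNF-α and none lower, where 5.07% of all gene names were that far higher, with CXCL10 at 3.09 and PARP14 at 2.51. The 14 include ISG20 at 1.00 and CXCL11 at 1.02, lower bounds just past the cutoff, since both genes were dim with serotonin.

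CMPK2 and OAS2 are named for their place in the genome, next to RSAD2 and OAS1 in the RefSeq table. CMPK2, a mitochondrial nucleotide kinase, had log2 ratios of -2.20 for pMA against PIP, 0.60 for TNF-α against pMA and -1.39 for serotonin against pMA. OAS2, a second oligoadenylate synthetase, gave -0.94, 0.04 and -1.29. For pMA against PIP the 5 probes of OAS2 differed in sign and ran from -0.94 to 0.38, whereas after serotonin they lay between -1.29 and -1.02. The value of OAS2 after TNF-α lay within the technical standard deviation.

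Interferon genes themselves were near the limit of the arrays. IFNB1 was well above background in PIP cells and on no other array, and was at least 2.10-fold higher there than in pMA. IFNA1 and IFNG were above background only with TNF-α, and IFNE on no array, with 1 probe for each of these genes. The lower bound of IFNA1 for TNF-α against pMA was 1.01-fold. The signal of IFNG with TNF-α did not pass the faintest signal well above background on the pMA array. The TNF-α array also had more probes above background than the pMA array, 66.0% against 56.6%. Of the receptor chains, IFNAR1, which binds type I interferon, had log2 ratios of -0.08 for pMA against PIP, 0.59 for TNF-α against pMA and 0.47 for serotonin against pMA, and its second probe gave 0.48 for pMA against PIP. Its partner IFNAR2 gave 0.26, -0.06 and -0.17, and no receptor chain on the array differed 2-fold in any of these comparisons.

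Of the other sensors and adaptors, 2 of 9 with a ratio were at least 2-fold lower in pMA than in PIP cells, beside 3.56% of all gene names. These were DHX58, which encodes LGP2, a further helicase of the RIG-I family, at -1.56, and MB21D1, which encodes the DNA sensor cGAS, at -1.73. None of 10 differed 2-fold after TNF-α and none of 9 after serotonin, with DHX58 at 0.69 and -0.99. DHX58 at 1.69 and the nucleic acid sensor ZBP1 at 1.09, with a second probe at 0.81, were the 2 of 10 at least 2-fold higher with TNF-α than with serotonin, beside 5.07% of all gene names.

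Of the JAK-STAT and IRF genes, 3 of 12 were at least 2-fold lower in pMA than in PIP cells, among them IRF2, a factor that binds the same promoter elements as IRF1, at -1.17, beside 3.56% of all gene names. The second probe of IRF2 had the opposite sign, at 0.85, so that its place in this count rests on 1 probe. None of 13 differed 2-fold after TNF-α, with IRF1 at 0.76, SOCS3 at 0.57 and IRF2 at 0.45. The sign depended on the probe for SOCS3, whose second probe gave -0.28, and for IRF2, whose second probe gave -0.09. After serotonin 2 of 12 were at least 2-fold lower, beside 4.73% of all gene names, and 1 was higher. USP18, which removes ISG15 from proteins and was named after its values were seen, was among the former at -1.77. The one that was higher was SOCS3, an inhibitor of cytokine signalling, at 1.72 and 1.08 in its pair of probes, where 2.08% of all gene names were at least 2-fold higher.

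**Figure D3:**
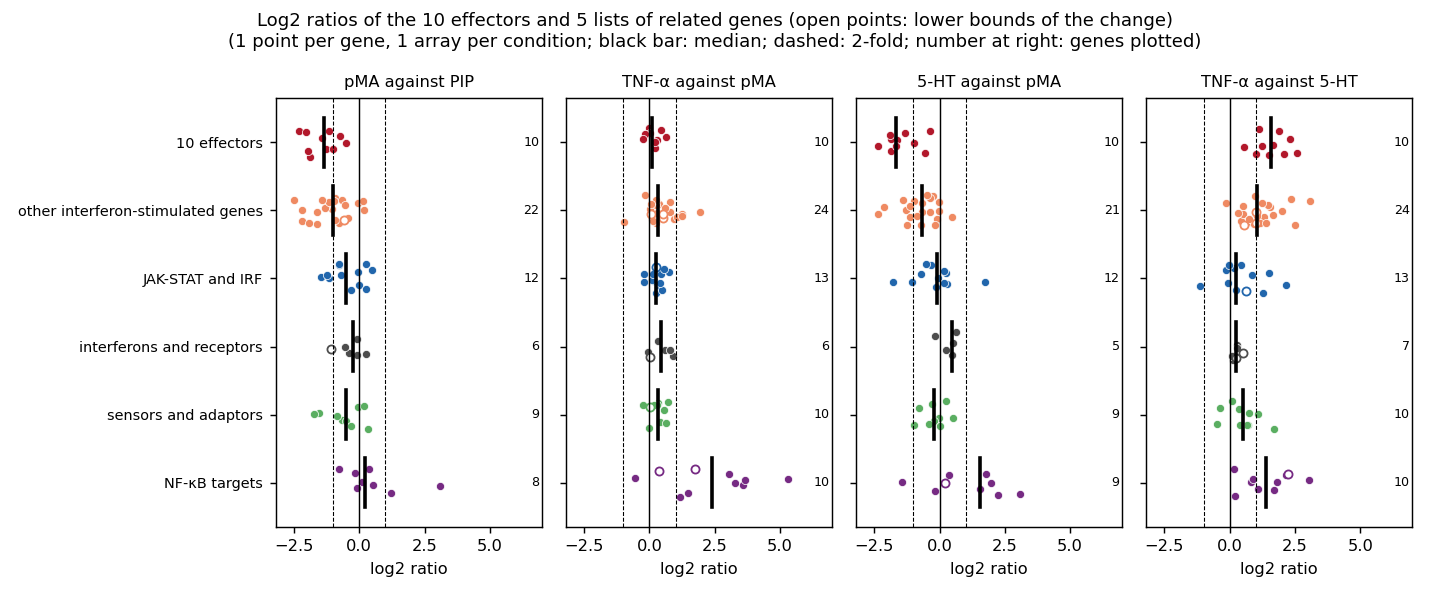
Log2 ratio (x axis) of the 10 genes and of 5 lists of related genes (y axis) in 4 comparisons, with 1 point per gene, 1 array per condition and a black bar at the median. Open points are lower bounds where 1 array was dim, dashed lines mark a 2-fold difference, and the median of the 10 genes lies at -1.35, 0.11, -1.66 and 1.58 from left to right.

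The genes whose profile over the 4 arrays was closest to the mean profile of the 10 were sought among 4703 gene symbols, by the root mean square difference of centred log2 levels. MEG3, a long non-coding RNA, was the closest at 0.10, and DPT at 0.17, KCNS3 at 0.18 and QRFPR at 0.20 were also among the closest 5. Next came USP18 at 0.21, DHX58 at 0.23, FAM13C at 0.23, TUBB6 at 0.24 and OAS2 at 0.24. The mean profile ran from 1.40 in PIP cells over -0.03 in pMA and 0.11 with TNF-α to -1.48 with serotonin. The 10 genes themselves lay between 0.14 for IFIT2 and 0.64 for MX2 from it (8 of the 10 farther than QRFPR).

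Markers of cell types were read beside these results. Of 10 leukocyte markers 6 were on the array, with CD163 among the markers not well above background on any of the 4. The summed level of the 6 was 1.68 times the 75th percentile in PIP cells, 2.24 in pMA, 3.18 with TNF-α and 2.10 with serotonin. CD14 had log2 ratios of 0.46 for pMA against PIP, 0.66 for TNF-α against pMA and -0.02 for serotonin against pMA, and AIF1 of 0.07, -0.91 and -0.96. The part of leukocyte transcripts in the levels of the 10 genes was not tested. The summed level of the 6 skeletal muscle markers was 643 in PIP cells, 658 in pMA, 610 with TNF-α and 175 with serotonin. Most of this sum was ACTA1, at a log2 level of 9.31 in PIP cells and 7.40 with serotonin. After serotonin ACTA1 had a log2 ratio of -1.94, with probes between -2.63 and -0.26. DES was at -1.02, with probes between -2.59 and -0.55, CKM at -0.76, MYH1 at -0.65 and MYOG at -0.01. MYOD1 was not well above background on any array. Of the markers of preadipocytes and fibroblasts, 5 of 6 with a ratio were also lower after serotonin, with a median of -0.61. Of the endothelial markers, 3 of 3 with a ratio were lower, with a median of -0.79. COL1A1 was at -1.41, COL1A2 at -0.91, THY1 at -0.88, VIM at -0.34, FN1 at -0.25 and PDGFRB at 0.27. The endothelial PECAM1 was at -1.46, with its 4 probes between -1.46 and -0.44. VWF, a lower bound of the change, was at -0.79 and KDR at -0.76, and CDH5 and TEK were not well above background on any array. The part of these markers' differences in the serotonin results was not tested. Of 10 adipocyte markers on the array, 5 of 8 with a ratio were at least 2-fold higher in pMA than in PIP cells, beside 9.94% of all gene names, among them PPARG at 1.07 and FABP4, which was at least 8.48-fold higher. CIDEC was at 3.88 by its brighter probe and at 0.75 by the other. After serotonin FABP4 was at -2.77, LPL at 2.41 and CD36 at 1.47, so that the adipocyte markers moved both ways. PLIN1, a defining protein of the mature lipid droplet, was not well above background on any array, and ADIPOQ was above it only in PIP cells.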

How the data were processed

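Each of the 4 samples was hybridised to 1 one-colour (Cy3) porcine oligonucleotide array, and the deposited scanner files hold the intensity of every spot after background subtraction by the authors with Agilent Feature Extraction 10.7.3.1. The methods also name a mouse array read by GenePix and a two-colour porcine array, which the files did not show. The deposited value table holds the same intensity divided by a constant for each array near its 75th percentile, in linear units. Control spots and outlier spots (1 to 12 per array) were left out, spots of a probe were averaged, and log2 intensity was expressed relative to the 75th percentile of its array. A probe counted as well above background where all its spots did. A ratio against a dim array was a lower bound, taken against the higher of the probe's own signal there and the faintest signal well above background on that array, and none was formed for a probe dim on both arrays. With 1 array per condition there was no test. The precision is limited by the number of arrays.

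The members and lists were chosen with earlier results of these data known. Besides the 10 genes, the text names, from each list, the genes that differed at least 2-fold in a comparison, or, where these were more than 4, the 4 with the largest difference after TNF-α, and the 5 symbols closest in profile, except genes that are not reported here. For the NF-κB, JAK-STAT and marker lists and the closest profiles some further genes were named after their values were seen. Alternatives were 9 planned settings (background correction by normexp with an offset of 50, scaling to the median, quantile normalization, filters on dim probes, the mean over probes, the deposited value table, and cutoffs of 4-fold and 1.5-fold) and 1 added after seeing the data, scaling to bright spike-in controls. Python 3.11.15, pandas 2.3.3, numpy 2.4.6, matplotlib 3.10.9, R 4.3.3 and limma 3.58.1 were used. The calculation of the ratios was tried on simulated data, with less spot noise than measured here and no spread between cultures. That trial bears on the calculation only and not on the precision of the ratios. Gene neighbours came from the RefSeq table of Sscrofa11.1, where 10 of 10 genes matched.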

Additional observations from a re-analysis of the deposited data

How the results depend on the processing

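None of the counts, medians or single ratios of the 10 genes turned its direction past the 2-fold cutoff under the 10 alternatives. The median log2 ratio for pMA against PIP moved from -1.35 to -1.70 when arrays were scaled to their medians. That scaling moved the median of all gene names from 0.12 to -0.22 and the share of all gene names at least 2-fold lower from 3.56% to 8.68%. The median of the 10 genes was -1.55 with the mean over the probes of a gene, and -0.97 with scaling to bright spike-in controls. With the spike-in scaling 5 genes were at least 2-fold lower, where 1.69% of all gene names were. At a 4-fold cutoff, 2 genes were lower in pMA than in PIP cells, 1 was lower after serotonin and 3 were higher with TNF-α than with serotonin. Of all gene names, 0.698%, 0.681% and 1.04% differed that far in these directions. At a 1.5-fold cutoff, 1 gene of the 10, IFIH1, was higher after TNF-α, where 6.89% of all gene names were. The filters on dim probes could move no ratio of the 10 genes, since all their probes were above background on every array, and the mean over probes could not move ISG15. Of the 236 other ratios of single genes, 199 moved by less than the technical standard deviation and 37 by more. In 6 of them the sign changed, all in the comparison of TNF-α with pMA and all for MX2 (between -0.09 and 0.50 over the settings), IFIT1 (between -0.07 and 0.08) and ISG15 (between -0.06 and 0.09). No paired analysis was possible because each condition had 1 array. The spread between cultures could not be measured, so that the technical standard deviation is a lower limit of the error.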

Other observations

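Further genes that interferon is known to induce were measured on all 4 arrays. TAP1, the peptide transporter of antigen presentation, had a log2 ratio of -0.93 for pMA against PIP, 0.95 for TNF-α against pMA and -0.01 for serotonin against pMA. The second probe of TAP1 gave 0.30 for pMA against PIP, so that its direction there depended on the probe. TNFSF10, a death ligand that interferon induces in many cells, was 0.16 for pMA against PIP and lower on both stimulated arrays, at -0.98 with TNF-α and -2.36 with serotonin. GBP1, a guanylate-binding GTPase, was at -0.97, 0.24 and -2.12 in the same order. These 3 genes were named after their values were seen, and no difference between them and the 10 genes was tested.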
